A study of Mus musculus with 6 samples.

Results

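The cells described here are non-ciliated epithelial cells of the mouse uterine tube (oviduct) in which transcripts of at least 2 of 5 genes, Rspo1, Igfbp3, Rasl11a, Zfpm2 and Tmtc1, were found. They are called panel-positive cells below. A barcode (the tag of a droplet, taken as a cell) was kept with at least 500 unique molecular identifiers (UMIs, each a counted transcript molecule) and 250 genes. It was taken as epithelial when Epcam, Krt7, Krt8 and Krt18 together gave at least 2 UMIs and more UMIs than the stromal genes Dcn, Col1a1, Col1a2 and Col3a1, and as non-ciliated when at most 2 of 8 ciliary genes were detected. Cells with 2 or more of Slc6a2, Galntl6, Sprr1a and Kcnip4, which mark another distal epithelial population, were left out. The members were thus chosen by the UMIs of these genes in each cell. In all, 313 cells met these criteria, out of 4611 non-ciliated epithelial cells and 19619 kept barcodes. Because of this choice, levels of the 5 genes and of every other gene in these cells are given as a description, without a test.

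The study profiled tubes of adult female C57BL6 mice in estrus, cut into a distal section, toward the ovary, and a proximal section, toward the uterus. Tissue of each section was combined over a group of mice, dissociated and sequenced as droplet libraries, 3 distal (numbered 1, 2 and 3) and 3 proximal (numbered 2, 3 and 4). The mice carried no treatment or engineered allele in the labels, and a library is 1 pool of animals. Kept barcodes ran from 327 in proximal 3 to 7171 in distal 1, and total UMIs from 426707 to 32488145 in the same libraries. Across the libraries, 191 barcode sequences occurred in 2 or more.

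R-spondin 1, the product of Rspo1, is a secreted protein that binds the receptors Lgr4, Lgr5 and Lgr6 and the ubiquitin ligases Znrf3 and Rnf43. It thereby keeps Wnt receptors at the cell surface. Igfbp3 is a secreted carrier of insulin-like growth factors (IGFs), Rasl11a is a small GTPase of the Ras family, Zfpm2 (FOG2) is a nuclear cofactor of GATA transcription factors, and Tmtc1 is an enzyme of the endoplasmic reticulum that adds mannose to cadherins. The tubal epithelium is a single layer of ciliated and secretory cells, and its distal end carries the folds of the fimbria, which meet the mesothelium of the ovary and peritoneum.

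Promoter sequences of 4 of the 5 panel genes were found in RefSeq (GRCm38.p6). The 250 bases before the start of Rspo1 and Igfbp3, the 2 secreted factors that give the cells their name, are shown 5′ to 3′ on the gene's strand, with CpG dinucleotides in capitals. The Rspo1 window is chr4:124986180-124986429 (plus strand), and the Igfbp3 window is chr11:7213924-7214173 (minus strand).
Rspo1: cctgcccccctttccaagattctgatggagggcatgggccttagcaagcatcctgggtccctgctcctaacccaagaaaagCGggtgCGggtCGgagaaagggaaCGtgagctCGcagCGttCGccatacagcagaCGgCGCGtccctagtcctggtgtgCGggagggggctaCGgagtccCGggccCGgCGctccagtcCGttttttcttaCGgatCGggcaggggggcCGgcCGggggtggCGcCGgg
Igfbp3: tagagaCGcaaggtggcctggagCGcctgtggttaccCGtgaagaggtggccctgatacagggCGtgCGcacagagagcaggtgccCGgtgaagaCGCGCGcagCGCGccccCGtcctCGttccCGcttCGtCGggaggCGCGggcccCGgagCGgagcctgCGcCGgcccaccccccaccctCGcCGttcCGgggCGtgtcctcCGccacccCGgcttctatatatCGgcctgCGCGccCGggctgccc
The Rspo1 window held 22 CpG dinucleotides and the Igfbp3 window 32, against a median of 6 in windows of the same length before 32851 RefSeq starts. The windows of Rasl11a and Tmtc1 held 15 and 23. The letters GATAA (GATA factors), CTTTGA (TCF factors) and AGGTCA (nuclear receptors) were searched on both strands, and each was absent from all 4 windows. They occur in 22.6%, 13.8% and 14.0% of the 32851 windows. The promoter of Zfpm2 is not shown.

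Panel-positive cells were found mainly in distal libraries. They made up 5.74% of the non-ciliated epithelial cells in distal 1 (110 of 1918 cells, exact Clopper-Pearson 95% interval 4.74% to 6.87%), 2.82% in distal 2 (26 of 922, 1.85% to 4.10%) and 13.2% in distal 3 (172 of 1302, 11.4% to 15.2%). In proximal 2 none of 246 cells was panel-positive (0, with a share up to 1.49% inside the exact 95% interval), and in proximal 3 none of 80 (0, up to 4.51%). Proximal 4 had 5 of 143 (3.50%, 1.14% to 7.97%). The regions overlapped, since proximal 4 lay above distal 2. The mean share was 7.26% ± 5.36 (SD, n = 3) in distal and 1.17% ± 2.02 (SD, n = 3) in proximal libraries. A two-sided exact permutation test of the 3 distal against the 3 proximal shares gave p = 0.2 (difference of -6.09 percentage points), and the smallest p this design can give is 0.1. Intervals cover counting error only. The panel was described as distal with results of these same libraries known, so the shares and their test are foremost a description.

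**Figure D1:**
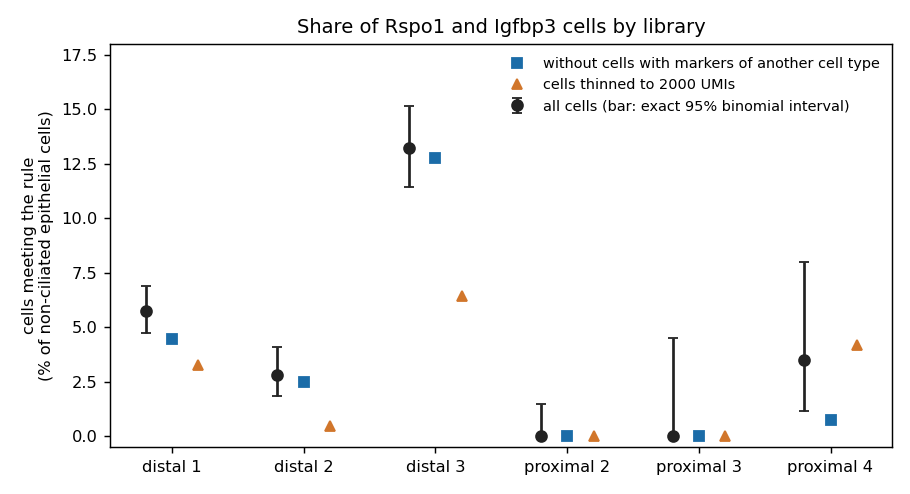
Share of non-ciliated epithelial cells that were panel-positive (vertical axis, percent) in each of the 6 libraries. Black circles give all cells with exact 95% binomial intervals, blue squares the share after leaving out cells with markers of another cell type, and orange triangles the share after thinning each cell to 2000 UMIs. Distal 3 was highest on each measure, and proximal 2 and 3 were at 0.

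Detection of a low transcript depends on depth. Panel-positive cells had medians of 6772, 11570.5 and 6195.5 UMIs in distal 1, 2 and 3, and the other non-ciliated cells of these libraries had 3513, 3996 and 6095.5. Proximal non-ciliated cells other than the panel-positive ones had medians from 1964.5 to 3680. With each cell thinned to 2000 UMIs, which left out 417, 89 and 123 shallower distal cells and 126, 41 and 47 shallower proximal cells, the shares were 3.26%, 0.475% and 6.41% in distal 1, 2 and 3 and 0, 0 and 4.17% in proximal 2, 3 and 4. Proximal 4 then lay above distal 1 and 2, and the difference of the means was -1.99 points (exact permutation p = 0.5). The whole rule was applied again to the thinned counts, so the set of cells also changed in other ways. It then held 1505, 842 and 1216 distal and 120, 37 and 96 proximal non-ciliated epithelial cells.

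The 5 proximal cells, all from proximal 4, are described by their markers, without a test. Igfbp3, Zfpm2 and Epcam were also used by the rule that chose the cells. Igfbp3 was detected in 0 of the 5 and in 128 of 308 distal cells, and Zfpm2 in all 5 and in 95 of 308. At least 2 of the mesothelial genes Upk3b, Lrrn4, Gpm6a and Nkain4 were detected in 4 of the 5, against 5 of 308 distal cells, all of them in distal 1. Epcam, an adhesion molecule of epithelia, was detected in 3 of 5 proximal cells and in 285 of 308 distal cells. The 2 proximal cells without Epcam were shallow, with 1081 and 1228 UMIs, while the 3 with it had 6487 to 9658. Cells with 2 or more markers of another cell type were therefore also left out of both numerator and denominator, a choice made after seeing the data. The shares became 4.44%, 2.49% and 12.8% in distal and 0, 0 and 0.752% in proximal libraries. This step removed 4 of the 5 proximal cells that had prompted it, so the difference of -6.32 points is a description and no separate evidence of a region difference. Because no proximal library held 10 panel-positive cells, gene levels were not tested between regions within them, and the results below are on the 308 distal cells.

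Few panel-positive cells carried the whole panel. Of the 308 distal cells, 203 had exactly 2 of the 5 transcripts, 69 had 3, 33 had 4 and 3 had all 5. Just outside the threshold were 479 distal cells with exactly 1, with a median of 7035 UMIs against 7005 in cells with exactly 2, and 3081 cells had none. Tmtc1 was found in 219 of the 308 cells (71.1%), Rasl11a in 166 (53.9%), Rspo1 in 152 (49.4%), Igfbp3 in 128 (41.6%) and Zfpm2 in 95 (30.8%). The commonest pair was Rasl11a with Tmtc1, in 115 cells, and both Rspo1 and Igfbp3 were found in 63. The name of the population thus describes a panel and not a pair of genes found together in most cells.

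Among all distal non-ciliated epithelial cells, Igfbp3, Rasl11a and Tmtc1 were each found in a larger share of the cells with Rspo1 than of those without it, but most cells with Rspo1 lacked each of them. Igfbp3 was detected in 31.8% of cells with Rspo1 and in 4.57% of cells without it, but the cells with Rspo1 were deeper, with a median of 6604 against 4409 UMIs. In distal 3 the medians were alike, 6028 and 6118 UMIs, and Igfbp3 was detected in 37.4% of the cells with Rspo1 and 8.65% of those without. Rasl11a in the same library was detected in 35.8% of cells with Rspo1 and 9.08% of those without. Tmtc1 was detected in 49.6% and 14.2%.

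Levels below are in CPM, a gene's UMIs per 1000000 UMIs summed over the cells of a class in a library. Rspo1 was at 124, 34.4 and 138 CPM in the panel-positive cells of distal 1, 2 and 3, and at 5.81, 0.727 and 5.61 CPM in the other non-ciliated cells. Igfbp3 was at 175, 48.7 and 277 CPM against 10.5, 4.18 and 42.2 CPM. Distal 2 was lowest for both genes in both classes, and distal 3 had the most Igfbp3 in both. Rasl11a was at 211, 91.7 and 147 CPM against 9.35, 6.54 and 12.9 CPM, Zfpm2 at 93.2, 48.7 and 83.7 CPM against 4.92, 1.27 and 6.71 CPM, and Tmtc1 at 228, 106 and 271 CPM against 22.3, 3.63 and 26.0 CPM. These gaps follow from the rule that chose the cells.

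The same genes were not restricted to epithelium. Stromal cells of the distal libraries, in which the stromal genes of the rule outnumbered the epithelial ones, held Rspo1 at 71.2, 70.4 and 74.8 CPM and Igfbp3 at 212, 113 and 188 CPM. Cells outside the panel-positive set with at least 2 of the 4 mesothelial genes (37, 4 and 18 cells) held Rspo1 at 700.4, 414 and 859 CPM and Zfpm2 at 740.1, 92.1 and 601 CPM, above the panel-positive epithelium in each library. Igfbp3 had the opposite order against the mesothelial-marker cells, which held 32.5, 0 and 53.7 CPM. Ciliated epithelial cells held Rspo1 at 13.9, 1.88 and 16.4 CPM. Epithelial cells with the Slc6a2 panel (128, 21 and 125 cells) held Rspo1 at 8.45, 2.82 and 9.31 CPM and Igfbp3 at 28.6, 2.82 and 138 CPM.

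**Figure D2:**
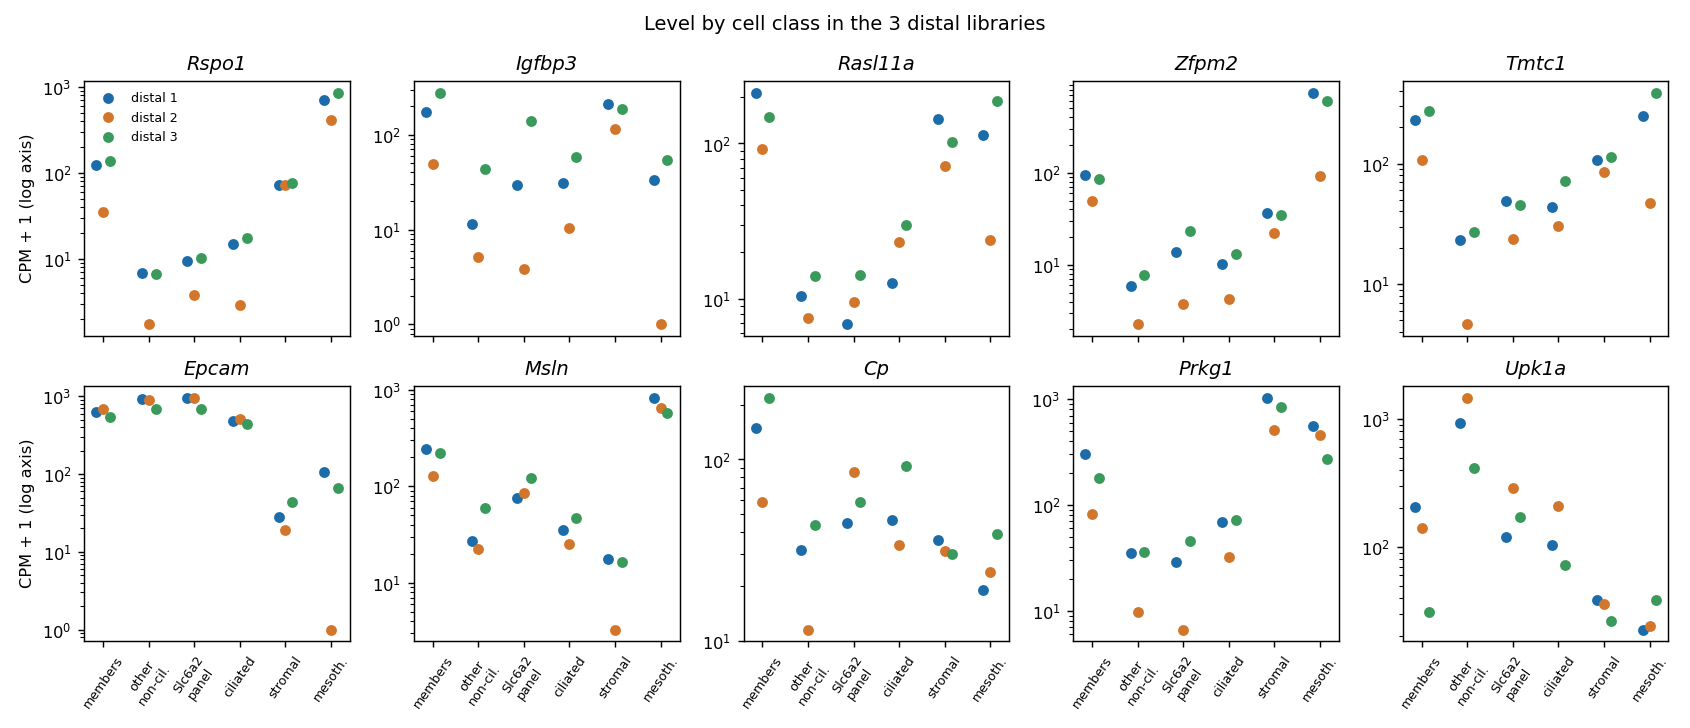
Level of 10 genes (CPM plus 1, log axis) by cell class in distal 1 (blue), distal 2 (orange) and distal 3 (green). A point is the summed level over the cells of a class in 1 library. "Members" are the panel-positive cells, "other non-cil." the other non-ciliated epithelial cells, and "mesoth." the cells with mesothelial markers. Rspo1 was highest in the mesothelial-marker cells, while Epcam in panel-positive cells (542 to 682 CPM) lay between the ciliated and the other non-ciliated cells in each library.

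Epithelial identity was checked with 7 epithelial genes (Epcam, Krt7, Krt8, Krt18, Cdh1, Cldn3 and Cldn4), of which the first 4 were used by the rule. Their summed level was 5149, 4703 and 5274 CPM in panel-positive cells of distal 1, 2 and 3 and 5063, 5178 and 4616 CPM in the other non-ciliated cells. Pax8, the Müllerian transcription factor of secretory tubal cells, was at 152, 338 and 262 CPM against 185, 239 and 273 CPM. These sums are a description, since the first 4 of the 7 genes were part of the rule, as were the 8 ciliary genes, of which 221 of the 308 cells had 0.

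Markers of other cell types were also present in some of them. At least 2 markers of 1 other type were found in 57 of the 308 cells (18.5%), against 7.69% of the other non-ciliated cells. Smooth muscle was the commonest type, with 37 cells, 27 of them in distal 1, followed by pericytes with 15 and blood endothelium with 7. The summed smooth muscle list (Acta2, Myh11, Actg2, Des, Cnn1 and Tagln) was at 2319, 820 and 265 CPM in panel-positive cells and 289, 46.3 and 145 CPM in the others. In the 251 panel-positive cells without such markers it was at 38.0, 18.4 and 30.7 CPM. This fall follows from the step itself, which left out cells with 2 or more of these genes. The values of the other cells are without such a step, so the 2 are not alike. The lymphatic list (6 genes) reached 254 CPM in distal 3 and was at 4.52 CPM there after the same step. Cells scored as likely doublets (droplets with 2 cells) were 29 of 308 (9.42%) among panel-positive and 66 of 3834 (1.72%) among other cells. Where a named list gene lost the 2-fold difference in cells without markers of another type, this is said below. The part of doublets or free RNA in them was not tested.

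**Figure D3:**
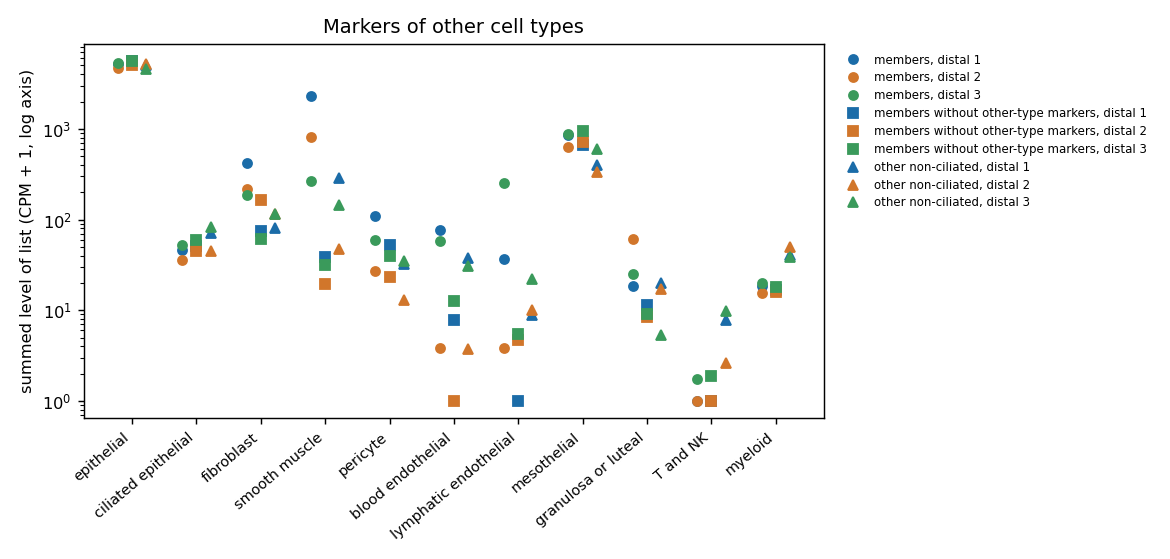
Summed level of each marker list (CPM plus 1, log axis) in panel-positive cells ("members", circles), in those without markers of another type (squares) and in the other non-ciliated epithelial cells (triangles), coloured by distal library. Smooth muscle markers in distal 1 were at 2319 CPM in the circle and 38.0 CPM in the square, while epithelial genes lay between 4616 and 5593 CPM in all 3 classes. The squares leave out cells by genes of the non-epithelial lists, so low squares there follow from that step. The triangles were not filtered in this way.

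Against the other non-ciliated epithelial cells, panel-positive cells held more transcript of genes such as Prkg1, Cp and Msln, and less of genes such as Dcpp3, Upk1a and S100b. Counted were genes that differed at least 2-fold in the same direction in each of the 3 distal libraries, on the scale of log2 of CPM plus 5. Of 18531 genes with at least 10 UMIs, 109 were higher (0.588%) and 78 were lower (0.421%), the 5 panel genes being among the 109. With cells carrying markers of another type left out, 128 of 17702 were higher (0.723%) and 90 lower (0.508%). These shares are the background of the comparison, and the rule that chose the cells used it. Many of the higher genes were not particular to this epithelium. Of the 104 outside the rule, 48 were higher in stromal than in panel-positive cells in each library. Likewise 51 were higher in the mesothelial-marker cells, and 0 in the Slc6a2-panel cells.

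The highest-ranked gene was Prkg1, the cyclic GMP-dependent protein kinase, at 305, 80.2 and 179 CPM in panel-positive cells of distal 1, 2 and 3 and 34.1, 8.72 and 34.8 CPM in the others. Its log2 difference was 2.61 ± 0.39 (SD, n = 3), and 2.30 without cells carrying other-type markers, where its own level was 65.6, 29.4 and 129 CPM. Stromal cells held 1028, 509 and 850 CPM. Gucy1a2, a subunit of the guanylate cyclase that makes cyclic GMP, was at 191, 120 and 230 CPM against 49.9, 25.4 and 79.9 CPM. Unlike Prkg1, Gucy1a2 was lower in stromal cells than in the panel-positive cells, at 53.0, 32.7 and 46.1 CPM.

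Cp and Rhoj were higher in the panel-positive cells of distal 1 and 3 than in the ciliated, stromal, mesothelial-marker, Slc6a2-panel and other non-ciliated cells there. Cp, the copper-carrying ferroxidase ceruloplasmin, was at 149, 57.3 and 218 CPM against 30.8, 10.5 and 42.6 CPM, a log2 difference of 2.11 ± 0.11 (SD, n = 3). Stromal cells held at most 34.8 CPM of it and mesothelial-marker cells at most 37.6 CPM, while the Slc6a2-panel cells of distal 2 held 84.7 CPM, above the 57.3 CPM of the panel-positive cells there. Rhoj, a small GTPase that acts on the actin skeleton, was at 865, 338 and 1056 CPM against 284, 88.5 and 370 CPM. Stromal cells held 555, 641 and 484 CPM of Rhoj, above the panel-positive cells in distal 2 alone.

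Msln and Podxl of the mesothelial-type list were also higher, as was Serpinb6b. Msln, the surface glycoprotein mesothelin, was at 242, 126 and 220 CPM against 26.1, 21.1 and 58.8 CPM, and it kept a log2 difference of 2.49 without cells carrying other-type markers. Podxl, a surface sialomucin, was at 92.2, 43.0 and 102 CPM against 24.1, 7.45 and 27.2 CPM. Serpinb6b, an intracellular protease inhibitor, was at 71.6, 45.9 and 95.7 CPM against 15.1, 7.27 and 15.5 CPM. The mesothelial-marker cells held more Msln than the panel-positive cells, at 827, 645 and 580 CPM, and more Serpinb6b, at 426, 207 and 424 CPM. Defining mesothelial genes were near 0 outside distal 1, where Upk3b, 1 of them, was at 35.8 CPM, against 0 and 0.754 CPM in distal 2 and 3. The mesothelial list (Msln, Wt1, Upk3b, Lrrn4, Gpm6a and Nkain4) summed to 852, 625 and 879 CPM, against 401, 330 and 599 CPM in the others. Without cells carrying other-type markers, a step that uses the last 4 of these genes, it was at 654, 714 and 939 CPM in panel-positive cells.

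Timp2, Sulf1, Loxl1 and Slit2, which act outside the cell, were among the 20 highest genes as well. Timp2, an inhibitor of matrix metalloproteases, was at 222, 97.4 and 214 CPM against 48.7, 20.3 and 58.9 CPM. Sulf1, which trims sulfate from heparan chains, was at 170, 100.3 and 182 CPM against 44.9, 12.4 and 56.1 CPM. Loxl1, which cross-links elastin, was at 72.6, 34.4 and 57.3 CPM against 12.8, 7.27 and 14.9 CPM. Slit2, a secreted guidance ligand of Robo receptors, was at 180.0, 120 and 174 CPM against 60.0, 16.2 and 48.1 CPM. The panel-positive cells lay above the others in each library for all 4, and the fold was smallest in distal 1 for Slit2 and in distal 3 for the other 3. Stromal cells held more Timp2 than panel-positive cells, at 529, 524 and 571 CPM. They also held more Loxl1 (238, 312 and 243 CPM) and Slit2 (497, 290 and 342 CPM), but less Sulf1 (119, 94.6 and 123 CPM). Of the 29 basement membrane and matrix genes measured, 4 were higher (Timp2, Loxl1, Hspg2 and Spock2) and 0 lower, with a median log2 difference of 0.64 against 0.03 over all genes, of which 0.588% were higher. Spock2 was no longer past the fold without cells carrying other-type markers (log2 difference 0.44).

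The remaining genes among the 20 highest were Samd4, Cpe, Pim1, Zbtb16, Palld, Thsd7a, Klf2, Rarres2 and Ccdc141, with mean log2 differences from 1.68 to 2.34. Zbtb16 encodes the zinc finger transcription factor PLZF, Pim1 a serine/threonine kinase, Palld an actin-binding protein and Klf2 a Krüppel-like factor. Zbtb16 was at 66.1, 17.2 and 89.7 CPM against 9.06, 1.82 and 13.1 CPM. Rarres2, which encodes the chemoattractant chemerin, spread most, at 241, 43.0 and 97.2 CPM against 16.4, 12.7 and 19.4 CPM. In distal 1 its level was 55.2 CPM in the cells without other-type markers, and mesothelial-marker cells there held 3487 CPM. All 20 of these genes were past 2-fold in each library also without the cells carrying other-type markers.

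**Figure D4:**
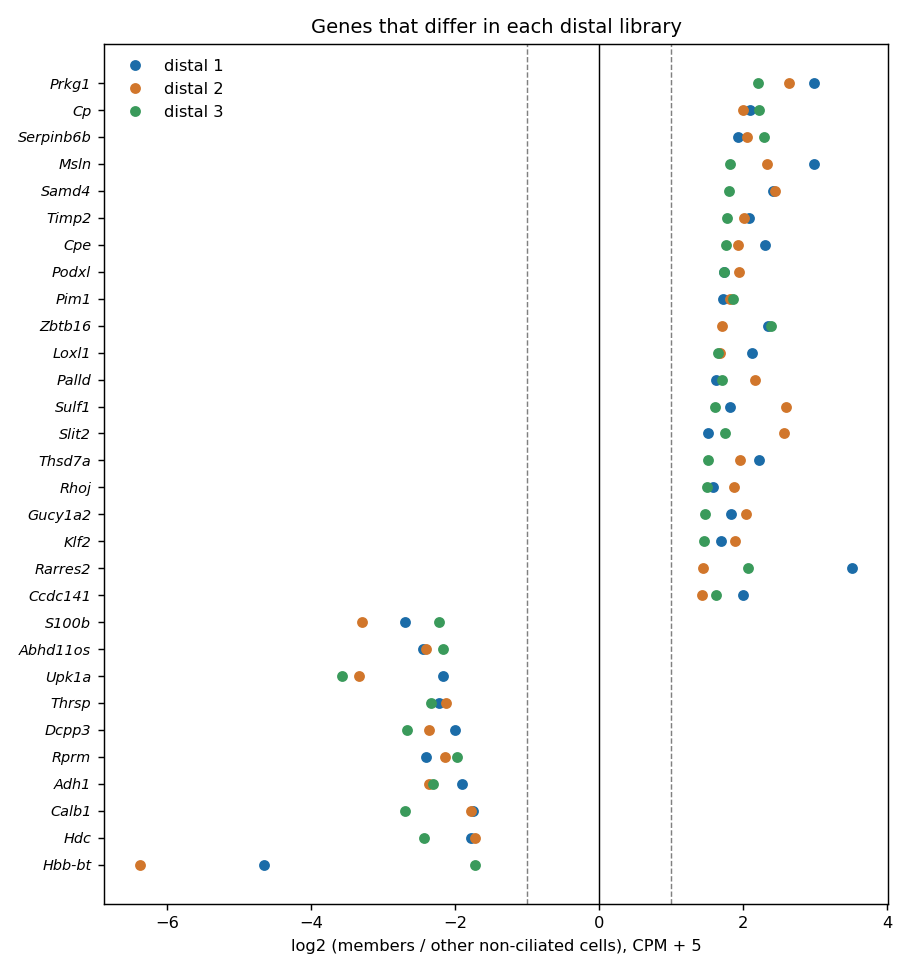
Log2 ratio of panel-positive cells ("members") over other non-ciliated epithelial cells (horizontal axis, CPM plus 5) for the 20 highest and 10 lowest genes, leaving out genes of the rule. Points are distal 1 (blue), 2 (orange) and 3 (green), and dashed lines mark 2-fold. Prkg1 had the largest smallest-of-3 ratio, and Hbb-bt spread most, from -6.38 to -1.72.

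Lower genes included the secreted protein gene Dcpp3 and the globin gene Hbb-bt. Dcpp3, one of 3 near-identical secreted proteins whose reads are hard to tell apart, was at 1886, 891 and 864 CPM in panel-positive cells and 7535, 4596 and 5514 CPM in the others. Upk1a, a uroplakin of the apical membrane, was at 206, 140.4 and 30.1 CPM against 938, 1465 and 414 CPM. S100b, a calcium-binding protein, was at 39.0, 146 and 12.8 CPM against 281, 1481 and 78.2 CPM. For these genes the panel-positive cells were below the others in each library, and among the others Upk1a and S100b were highest in distal 2 and Dcpp3 in distal 1. Calb1, Adh1, Hdc, Thrsp, Rprm and Abhd11os were lower by mean log2 differences of -1.98 to -2.34. Hbb-bt, a globin of red cells, was at 3.25, 2.87 and 52.0 CPM against 203, 650 and 183 CPM. The 4 globin genes summed to 34.7, 118 and 1587 CPM in panel-positive cells and 2521, 8008 and 2219 CPM in the others.

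Every gene of the secretory list that passed the fold was lower. Of its 21 genes, 6 were lower (Dcpp1, Dcpp2, Dcpp3, S100b, Upk1a and Wfdc18), 0 higher, and 11 were below the others in each library, with a median log2 difference of -0.47. By comparison, 0.421% of all genes were lower. Of 18506 genes outside the rule, 3995 were below the others in each library, and the median was 0.03. Without cells carrying other-type markers, 4 of 20 were lower, Dcpp1 and Dcpp2 no longer passing in each library (mean log2 differences of -2.09 and -1.62). Wfdc18, a small secreted protein of the whey acidic family, was at 1717, 1605 and 899 CPM against 5095, 5177 and 3680 CPM. Ovgp1, the oviductal glycoprotein coating eggs and sperm, was at 7308, 10487 and 6574 CPM against 19123, 18575 and 12999 CPM. It was lower in each library but passed 2-fold in distal 1 alone, with log2 differences of -1.39, -0.82 and -0.98.

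Genes of the Wnt pathway, in which R-spondin 1 acts, were compared next. Of 47 measured genes of the R-spondin and Wnt list, 2 were higher (Nkd1 and Tcf7l1), 0 were lower, and the median log2 difference was 0.37 against 0.03 over all genes, of which 0.588% were higher. Without cells carrying other-type markers, Tcf7l1 alone of 45 passed, Nkd1 having a mean log2 difference of 1.39. The receptor Lgr4 was at 83.5, 152 and 131 CPM in panel-positive cells and 115, 93.4 and 133 CPM in the others, with no common direction. Lgr6 was at 32.5, 37.3 and 80.6 CPM against 19.6, 12.7 and 43.6 CPM, and Lgr5 at 5.42, 2.87 and 24.9 CPM against 2.36, 1.27 and 3.78 CPM. Both lay above the others in each library without passing 2-fold in all 3. The ligases Znrf3 (49.9, 71.7 and 80.6 CPM against 48.8, 30.0 and 57.9) and Rnf43 (31.4, 25.8 and 37.7 CPM against 34.7, 10.9 and 26.5) were not past the fold either.

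Targets and modulators of Wnt signalling were at low levels. Nkd1, an inhibitor induced by the pathway, was at 41.2, 5.73 and 18.8 CPM against 5.61, 0.182 and 4.27 CPM. In distal 2 this was 2 UMIs in panel-positive cells and 1 in the others. After thinning to 1500 UMIs the log2 difference of Nkd1 in distal 2 was 0. Axin2, another induced inhibitor, was at 23.9, 14.3 and 27.9 CPM against 10.7, 4.18 and 8.91 CPM, with log2 differences of 0.88, 1.07 and 1.24. Tcf7l1, a DNA-binding effector that often represses, was at 24.9, 14.3 and 24.1 CPM against 6.99, 2.54 and 6.71 CPM. The ligand Wnt4 was at 54.2, 8.60 and 27.1 CPM against at most 6.69 CPM and missed the fold in distal 2, where 1 UMI among panel-positive cells is worth 2.87 CPM.

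In the IGF list, 2 of 18 measured genes were higher (Igf1 and Igfbp4), 0 were lower, and the median log2 difference was 0.66. Over all genes 0.588% were higher, and the median was 0.03. Igfbp4, a carrier that binds IGFs locally, was at 590, 473 and 826 CPM in panel-positive cells and 234, 118 and 278 CPM in the others, and its difference of 1.61 was 1.62 without the cells carrying other-type markers. The ligand Igf1 was at 55.3, 25.8 and 24.9 CPM against 7.09, 5.81 and 7.32 CPM, but its log2 difference of 1.70 became 0.70 without those cells. The receptor Igf1r was at 425, 310 and 367 CPM against 218, 110 and 296 CPM and did not pass the fold. Igfbp6 in distal 1 was at 351 CPM against 14.3, and in distal 2 and 3 at 25.8 and 36.9 CPM against 10.9 and 10.5. Stromal cells held more Igfbp4 than panel-positive cells in each library, at 936, 1028 and 920 CPM.

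GATA factors are the partners of Zfpm2. Of 7 measured genes in their list, Gata6 was higher, at 56.4, 43.0 and 58.8 CPM against 15.6, 6.90 and 20.6 CPM, and 0 were lower. Its difference of 1.63 was the same to 2 decimals without the cells carrying other-type markers. Nr2f2, a nuclear receptor that also binds FOG proteins, was at 106, 68.8 and 85.2 CPM against 46.3, 28.5 and 61.3 CPM and did not pass the fold in distal 3. Cadherins are the proteins that Tmtc1 modifies, and their list also included the Tmtc1 relatives Tmtc2, Tmtc3 and Tmtc4. Among its 21 measured genes, Cdh11 and Pcdh7 were higher and 0 lower. As background for this list and that of the GATA factors, 0.588% of all genes were higher and 0.421% lower. Without the cells carrying other-type markers Cdh11 and Pcdh7 fell short of the fold, with log2 differences of 1.28 and 0.29 as the mean of the libraries. The main epithelial cadherin, Cdh1, was at 971, 883 and 1115 CPM against 710.0, 392 and 928 CPM.

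Single members of other lists also differed, while over all genes 0.588% were higher and 0.421% lower. Id1, a target of BMP signalling that blocks helix-loop-helix factors, was at 83.5, 115 and 130 CPM against 32.1, 21.8 and 22.6 CPM and was the 1 higher gene of 32 in the BMP and TGF-beta list. Erbb4, a receptor of neuregulins, was at 137, 74.5 and 235 CPM against 45.4, 26.2 and 78.5 CPM and was the 1 of 25 in the EGF and FGF list. In the retinoic acid list (13 genes), the retinol importer Stra6 was higher, at 32.5, 14.3 and 17.3 CPM against 2.17, 0.727 and 4.03 CPM, together with Rarres2. In distal 2 Stra6 had 5 UMIs in panel-positive cells and 4 in the others. Cyp26a1, which breaks down retinoic acid, was lower, at 4.34, 8.60 and 1.51 CPM against 21.8, 71.6 and 20.4 CPM. Hsd11b1, which regenerates active glucocorticoid, was the 1 lower gene of 13 in the steroid hormone list, at 6.51, 5.73 and 4.52 CPM against 47.4, 45.1 and 23.1 CPM.

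In the axon guidance list (30 genes), Slit2 and Sema5a were higher and Dcc lower. For this and the next lists, the shares over all genes were 0.588% higher and 0.421% lower. Sema5a had a log2 difference of 1.58 that became -0.021 without cells carrying other-type markers, and Dcc, with 1, 0 and 2 UMIs in panel-positive cells, did not pass there either (-1.25). Ion transport genes (19 measured) were split, with the pump regulator Fxyd4 higher and its relative Fxyd3 and the carbonic anhydrase Car2 lower. Car2 did not pass in each library without cells carrying other-type markers (mean log2 difference -1.13) or without likely doublets. Fxyd3 was at 294, 375 and 174 CPM against 841, 1160 and 597 CPM, and Fxyd4 at 60.7, 43.0 and 83.7 CPM against 27.3, 15.8 and 14.6 CPM. In the mesothelial-type list (9 genes) Cav1, Msln and Podxl were higher, and Cav1 missed the fold without cells carrying other-type markers (log2 difference 0.45). The metallothionein Mt2 was the 1 higher gene of 20 in the stress list, whose median of 0.89 came with 18 of 20 genes above the others in each library, and Ifi27 was the 1 lower gene of 16 in the interferon list. Among 18506 genes outside the rule, 4522 lay above the others in each library, with a median of 0.03.

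Other lists held 0 genes past the fold, with median log2 differences of 0.17 for 22 Müllerian and duct transcription factors, 0.22 for 19 progenitor-associated genes, 0.31 for 10 pre-ciliated and ciliogenesis regulators, 0.01 for 14 Notch genes, 0.14 for 16 prostaglandin and vasoactive genes, 0.35 for 9 Ras-like GTPases and 0.57 for 16 cell cycle genes. Among these, Wt1 was at 411, 496 and 650.4 CPM against 374, 308 and 538 CPM, and Prom1, a pre-ciliated cell marker, at 81.3, 63.0 and 49.7 CPM against 116, 100.1 and 96.5 CPM. Of all 22 higher genes in the lists, 15 were past the fold without cells carrying other-type markers, as were 8 of the 12 lower ones.

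Mitochondrial transcripts and gene length moved with these differences. The median mitochondrial share was 4.66%, 4.27% and 4.88% in panel-positive cells and 1.39%, 0.852% and 4.65% in the other non-ciliated cells of distal 1, 2 and 3. The median gene span in the annotation (GRCm38) was 81.7 kb for the 104 higher genes outside the rule, 11.4 kb for the 78 lower genes and 18.5 kb for all tested. Among cells with at least 2000 UMIs and 1% mitochondrial UMIs, a choice made after seeing the data, 71 genes were higher and 46 lower, and all 20 highest-ranked genes remained past the fold. The part of span, depth and mitochondrial share in the differences was not tested.

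Where the panel-positive cells sit among the distal epithelium was described by clustering the 4142 distal non-ciliated epithelial cells without the genes of the rule. Of 12 clusters, cluster 1 (907 cells) held 220 of the 308 cells (71.4%), cluster 8 (158 cells) held 42 and cluster 3 (629 cells) held 39. A further 6 clusters, with 1785 cells in all, held 0. The cells of these 6 were shallower, with median UMIs from 984 to 3452.5 against 6709 in cluster 1. Their median mitochondrial shares were 0.195% to 0.762%, against 4.69% in cluster 1. The part of depth in these zeros was not tested. Leading genes of cluster 1 were Qsox1, Msln, Osbpl6 and Igfbp3, and it also held 201 of the 274 distal cells with the Slc6a2 panel. Leading genes of cluster 8 included the muscle genes Acta2, Tagln and Myh11. Of the 15 nearest neighbours of a panel-positive cell, a mean of 23.6%, 21.5% and 44.0% were panel-positive in distal 1, 2 and 3, against 3.53%, 1.65% and 8.39% for the other cells. Panel-positive cells thus lay mostly in 1 cluster, of which they made up 24.3%, and did not form a cluster of their own.

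Compared with the other cells of cluster 1, a comparison chosen after seeing the data, most differences were smaller. The panel-positive cells there (63, 15 and 142 cells) had medians of 6228, 10326 and 6027.5 UMIs, against 7721.5, 9904 and 6155 UMIs in the 274, 65 and 348 others. Of 14091 genes, 17 were higher (0.121%) and 51 lower (0.362%), the 4 genes of the Slc6a2 panel being among the latter. Besides the panel, the 12 higher genes were Casp12, Zbtb16, Tnfaip8, Fst, Id1, Nkd1, Fxyd4, Serpinb6b, Ctdspl, Cp, Ptgds and Cdo1. In distal 2, with 15 panel-positive cells in the cluster, several of these calls rest on very few UMIs. Nkd1 and Cdo1 were each at 6.94 CPM there against 0, and Casp12 and Tnfaip8 each at 20.8 CPM against 4.29 CPM. Id1 was at 115, 104 and 141 CPM in panel-positive cells and 46.2, 38.6 and 47.3 CPM in the others of the cluster. Fst, which encodes the activin inhibitor follistatin, was at 63.5, 13.9 and 57.8 CPM against 15.2, 2.86 and 16.0 CPM, and Cp at 178, 118 and 213 CPM against 84.1, 18.6 and 97.6 CPM. Of the 20 genes that led the wider comparison, 3 were past the fold within the cluster. Msln (log2 difference 1.06), Prkg1 (1.58) and Rhoj (0.80) were above the others on the mean of the libraries but not past the fold in each.

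Genes lower within the cluster are given here by examples picked after their values were seen, and stand for no group. The chaperone Hsp90b1 was at 708, 714 and 639 CPM against 1814, 1607 and 1392 CPM, the disulfide isomerase Pdia4 at 166, 139 and 134 CPM against 362, 296 and 295 CPM, and Agr2, a further disulfide isomerase of mucus-secreting cells, at 124, 187 and 60.8 CPM against 689, 430.1 and 281 CPM. Creld2 and Sdf2l1 were lower by mean log2 differences of -1.65 and -1.47. Vim, an intermediate filament, was at 112, 62.4 and 47.1 CPM against 234, 226 and 146 CPM, and Wfdc18 at 1506, 1658 and 984 CPM against 5470, 4084 and 3759 CPM. For each gene named here the panel-positive cells were below the others in all 3 libraries. The rule keeps cells with the Slc6a2 panel out of the panel-positive cells, so genes found with that panel are lower here by choice of cells.

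**Figure D5:**
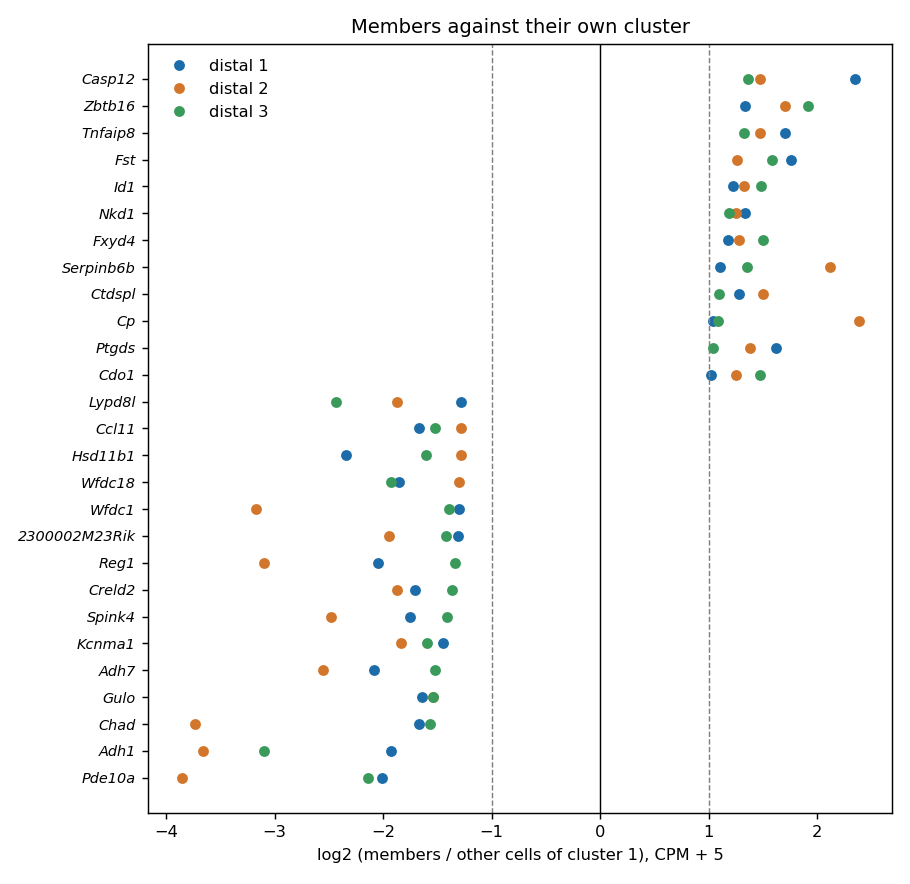
Log2 ratio of panel-positive cells ("members") of cluster 1 over the other cells of that cluster (horizontal axis, CPM plus 5), for the 12 higher genes and the 15 lower genes with the largest smallest-of-3 differences, leaving out genes of the rule. Points are distal 1 (blue), 2 (orange) and 3 (green), and dashed lines mark 2-fold. Distal 2, with 15 panel-positive cells in the cluster, spread most, as for Cp at 2.38 against 1.04 and 1.09.

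Set against the Slc6a2-panel cells themselves, 69 of 13432 genes were higher in panel-positive cells (0.514%) and 37 lower (0.275%), again with the 4 genes of that panel among the lower. The Slc6a2-panel cells were deeper, with medians of 11119, 15611 and 11194 UMIs. Cryab, a small heat shock protein, was at 147, 115 and 143 CPM in panel-positive cells and 40.3, 28.2 and 37.2 CPM in the Slc6a2-panel cells, with the smallest spread of the genes named here (log2 difference 1.80 ± 0.05, SD, n = 3). Podxl was at 92.2, 43.0 and 102 CPM against 24.7, 2.82 and 29.3 CPM, and Igfbp4 at 590, 473 and 826 CPM against 208, 90.3 and 195 CPM. Lower were Kiss1, the kisspeptin precursor, at 32.5, 14.3 and 9.04 CPM against 128, 62.1 and 29.9 CPM, and Wfdc18, with a log2 difference of -2.04. The alpha-macroglobulin relative A2ml1 was at 1145, 1493 and 800.4 CPM against 2796, 3220 and 3325 CPM. Of the 20 genes that led the comparison with all other non-ciliated cells, 7 were past the fold here and, of the 10 lowest, 1, which was Adh1.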

How the data were processed

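The deposited matrices hold raw counts of UMIs per gene and barcode, 1 matrix for each of 6 libraries (10x Genomics 3' v2, per the labels' protocols), with no normalization by the authors. The file headers name Cell Ranger 7.0.0, whereas version 6.1.2 and the mm39 build stand in the submitters' processing notes. Cells were chosen by the thresholds given in the text. For each class of cells in a library the counts were added up and scaled to CPM, and log2 ratios were taken within each distal library with a pseudocount of 5 CPM. Genes with at least 10 UMIs in either class were kept. The text names the panel genes, the 20 highest and 10 lowest genes by the smallest of the 3 library differences, and list members past 2-fold in each library. A few further list genes, and the genes named within cluster 1 and against the Slc6a2-panel cells, were chosen after their values were seen. Members and the 22 lists (487 genes) were chosen with earlier results of these data known. Library shares were tested between regions by exact permutation, two-sided (scipy 1.17.1). Clustering used 2000 variable genes, 20 components, 15 neighbours and leidenalg 0.10.2 at resolution 1. Likely doublets were the highest-scoring 0.8% of barcodes per 1000 barcodes and stayed in the main values. The contrast was checked on simulated data. Libraries are pools of mice, and whether pools share animals is not given in the sources used here, so the p-values measure only the spread between these libraries. Alternatives covered the pseudocount, the filter on low counts, thinning, the marker threshold, mitochondrial share, doublets, the cells compared and each library left out.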

Additional observations from a re-analysis of the deposited data

How the results depend on the processing

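The share of panel-positive cells was lower in proximal libraries under each of the 19 alternatives run, with differences from -0.493 points (thinned to 1000 UMIs, exact permutation p = 0.5) to -8.31 points (without distal replicate 2), and with p between 0.1 and 0.5. Leaving out each library gave -8.31 to -3.11 points, the smallest being without distal 3. All alternatives use the libraries in which the panel was named distal, so their common direction is no separate evidence of a region difference. The numbers in the library titles pair distal and proximal libraries 2 and 3 only, and a second number in the labels' descriptions pairs number 2 alone in the same way. With the title number as a replicate block, the mean difference was -8.02 points, and an exact two-sided sign permutation of the 2 pairs gave p = 0.5, the smallest it can give.

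Counts of genes past 2-fold moved with the scale. They were 312 higher and 207 lower at a pseudocount of 1 CPM, 38 and 28 at 20 CPM, and 169 and 228 after thinning to 1500 UMIs. With at least 3 panel genes required, 193 were lower, and against cells with none of the 5 genes 232 were higher. Leaving out 1 distal library gave 156 to 294 higher and 111 to 153 lower: 198 and 153 without distal 2, and 294 and 138 without distal 3. Among alternatives chosen after seeing the data, counts were 17 and 51 within cluster 1, 69 and 37 against the Slc6a2-panel cells, 71 and 46 among cells with at least 2000 UMIs and 1% mitochondrial UMIs, and 188 and 187 with the mean of per-cell CPM.

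Of the 55 named genes beside the panel, 54 or 55 kept their direction in each setting except within cluster 1 (50) and against the Slc6a2-panel cells (52). Fewer stayed past 2-fold in each library: 34 at 20 CPM, 40 after thinning, 42 with at least 3 panel genes, 44 without other-type markers, 46 by per-cell CPM, 48 among cells with at least 2000 UMIs and 1% mitochondrial UMIs, 51 without likely doublets, 19 against the Slc6a2-panel cells and 10 within cluster 1. Reversed mean log2 differences were -0.11 for Pcdh7 with at least 3 panel genes, -0.021 for Sema5a without other-type markers, and within cluster 1 -0.50 for Sema5a, -0.17 for Spock2, 0.62 for Hbb-bt, 0.62 for Dcpp2 and 0.20 for Dcpp1. Against the Slc6a2-panel cells they were 0.23 for S100b, 0.86 for Hbb-bt and 0.019 for Cyp26a1. The cause was not tested. Planned tests of gene levels between regions within panel-positive cells, and of their alternatives, were not run because the proximal libraries held 0, 0 and 5 such cells. Distal 2, with 26 cells and 348916 UMIs, limits the precision of low genes.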
